A study of Mus musculus with 8 samples.

Results

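The cell cycle genes described here are 39 named mouse genes, taken as the table entries whose gene symbol equals one of 39 symbols, and they are 39 of the 55536 genes in the deposited table. They comprise 5 D cyclins and partner kinases of G1, 5 genes of the G1/S transition, 9 DNA replication genes of S phase, 5 genes of S to G2, 7 genes of mitotic entry (G2/M) and 8 genes of chromosome segregation (M). The rule reads the symbol and no measured value. The samples were posterior palatal shelves dissected at E14.5, the paired folds from which the palate is built, taken before elevation with their epithelium and mesenchyme. All embryos carried floxed alleles of Yap1 and Taz (Yapfl/fl;Tazfl/fl). The 4 control libraries came from embryos with these alleles alone, and the 4 mutant libraries from embryos that also carried Col2Cre, a Cre transgene driven by regulatory sequence of the cartilage collagen gene Col2a1. Right and left shelves of an embryo were extracted together. Whether each library stands for a different embryo is not stated, and p-values therefore reflect only how much these samples vary, which may be technical.

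YAP and TAZ are transcriptional co-activators of the Hippo pathway, best known for driving tissue growth and cell division together with TEAD factors. A dividing cell passes through G1, S, G2 and M, and cyclins bound to cyclin-dependent kinases move it from one phase to the next. Many genes of the cycle are transcribed mainly in the phase in which they act, so their summed RNA in a tissue is widely used as a readout of how much of it is cycling. In the palatal shelves, mesenchymal proliferation is one of the processes by which the shelves grow before they elevate. The comparison of mutants with controls asks whether these genes differ in shelves that carry Col2Cre.

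Depth was even, with 29025090 to 32437977 reads per library recovered from the table. Yap1 stood at 9610 ± 429 normalised counts (SD, n = 4) in controls and 8463 ± 277 in mutants, and the libraries of the groups did not overlap. Wwtr1, the gene for TAZ, stood at 4879 ± 352 and 4007 ± 397 normalised counts, and Col2a1 at 17894 ± 4116 and 12072 ± 4318. None of them passed the test over all genes (limma adjusted p = 0.751, 0.751 and 0.754). The counts do not separate floxed exons from the others, so they check the labels only in part. All 8 markers of palatal mesenchyme and all 8 of epithelium were above 0 in every library. So were the 4 markers of Schwann cells and the 3 of neurons, and being above 0 therefore does not tell tissues apart. Gm42418, a transcript of the ribosomal RNA locus, took 4.22% to 5.66% of reads in controls and 1.56% to 2.49% in mutants.

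Genes of different phases are known to differ in the letters of their promoters. The upstream sequences of 4 members are shown as examples that carry at least some of the letters described next. E2F factors bind promoters of genes needed for S phase, NF-Y binds the CCAAT box, and the cell cycle homology region (CHR) is bound by the DREAM and MuvB complexes at genes of G2 and M. The sequences are the 120 bases before the RefSeq start of each gene, read 5′ to 3′ on the gene's own strand in RefSeq's GRCm38.p6, and none overlaps an annotated exon. Capitals mark the letters searched on both strands: TTTGAA for the CHR, CCAAT for the CCAAT box, and TTGGCGC or TTCGCGC or TTCCCGC or TTGCCGC as E2F-type letters. An E2F-type match on one strand can overlap another on the opposite strand, as both pairs in Mcm6 do. Mcm6 (chr1:128359706-128359825, minus strand) encodes a helicase subunit, Ccnb2 (chr9:70421555-70421674, minus strand) cyclin B2, Top2a (chr11:99024190-99024309, minus strand) topoisomerase II alpha and Kif11 (chr19:37376262-37376381, plus strand) a spindle motor.
Mcm6: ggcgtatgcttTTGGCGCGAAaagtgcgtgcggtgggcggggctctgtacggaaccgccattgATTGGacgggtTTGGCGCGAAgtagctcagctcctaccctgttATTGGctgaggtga
Ccnb2: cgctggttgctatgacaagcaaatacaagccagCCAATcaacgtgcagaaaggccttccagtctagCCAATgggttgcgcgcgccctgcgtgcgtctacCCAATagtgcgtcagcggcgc
Top2a: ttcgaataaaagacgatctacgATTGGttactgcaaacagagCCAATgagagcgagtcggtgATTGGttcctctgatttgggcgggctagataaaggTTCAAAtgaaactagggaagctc
Kif11: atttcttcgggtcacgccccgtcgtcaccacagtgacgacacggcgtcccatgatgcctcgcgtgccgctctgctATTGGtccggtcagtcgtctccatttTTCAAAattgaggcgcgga

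In these windows Mcm6 held E2F-type letters beginning 109, 106, 46 and 43 bases before the start and CCAAT letters 57 and 14 bases before it. Ccnb2 held CCAAT letters 87, 54 and 21 bases before its start and no CHR letters. The 2 CHR matches of Ccnb2 counted below lay outside the bases shown, in its window of 300 bases. Top2a and Kif11 each held CHR letters close to the start, 23 and 19 bases before it, with CCAAT letters further upstream. The RefSeq table gave windows of 300 bases, from 250 before to 50 after the start, for 31 of the 39 members (33 windows). E2F-type letters were in 6 of the 9 windows of S phase genes (66.7%), in 2 of 4 of G1/S genes, in 1 of 3 of S to G2 genes, in 2 of 6 of G2/M genes (33.3%) and in 0 of 4 and 0 of 7 of G1 and M genes, against 9.57% of all 32851 windows of the same length. CHR letters were in 4 of 6 windows of G2/M genes (66.7%), in 2 of 3 of S to G2 genes, in 4 of 7 of M genes (57.1%), in 1 of 9 of S phase genes (11.1%) and in 0 of 4 of both G1 and G1/S genes, against 17.9% of all windows. CCAAT letters were in 25 of the 33 member windows (75.8%), against 37.4% of all windows. Over the 19885 windows of protein-coding genes, the shares were 12.4% for E2F-type, 15.2% for CHR and 37.8% for CCAAT letters. A match is a run of letters and not a measured binding site.

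None of the 39 cell cycle genes passed the test in the mutant shelves, and no member's mean differed by more than 0.2 on the log2 scale. Differences are mutants minus controls on the log2 scale throughout. All 39 were among the 16647 genes tested, those that reached 10 normalised counts in 4 or more libraries. In the limma test of log2(normalised count + 1), 0 members had a Benjamini-Hochberg adjusted p below the 0.05 threshold, against 0.0240% of all genes tested. The smallest adjusted p of a member was 0.754. The same count of 0 came from edgeR, which called 0.0300% of all genes, and from DESeq2, which called 0.168%, both on recovered reads. Without adjustment, 3 members (7.69%) had a limma p below 0.05, namely Ccnd1, Cdc20 and Mybl2, against 6.57% of all genes. Cdc20 and Mybl2 were on the higher side, where 2.78% of all genes lay, and Ccnd1 on the lower side, with 3.79% of all genes. Mybl2 was the 1 member (2.56%) whose libraries did not overlap between the groups, against 3.77% of all genes, or 1.86% for non-overlap in the higher and 1.91% in the lower direction. These shares lie near the background.

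The direction was mixed. Means were higher in mutants for 23 members and lower for 16 (41.0%), against 50% in each direction over all genes. The median log2 difference of the members was 0.027, and that of all genes tested was -0.0001. The members' median absolute log2 difference was 0.052, against 0.069 over the 9205 genes at or above the level of the member with the lowest mean, Ccnb1 at 484 normalised counts. All 39 members lay within 0.2 in either direction, as did 90.5% of genes at such levels and 69.3% of all genes. The 95% interval of the difference lay within 0.3 log2 units of 0, or 1.23-fold, for 31 of 39 members. Dropping 1 library moved the difference of 30 members by over 1.5 times or turned it, and the other 9 were Aurka, Ccnd1, Ccne1, Cdc20, Cdk4, Cenpe, Mcm2, Mki67 and Mybl2. The interval that reached farthest was that of Cdc25c, up to 0.45, or 1.37-fold. In these bulk samples, fewer cells of a type and less RNA per cell cannot be told apart.

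**Figure D1:**
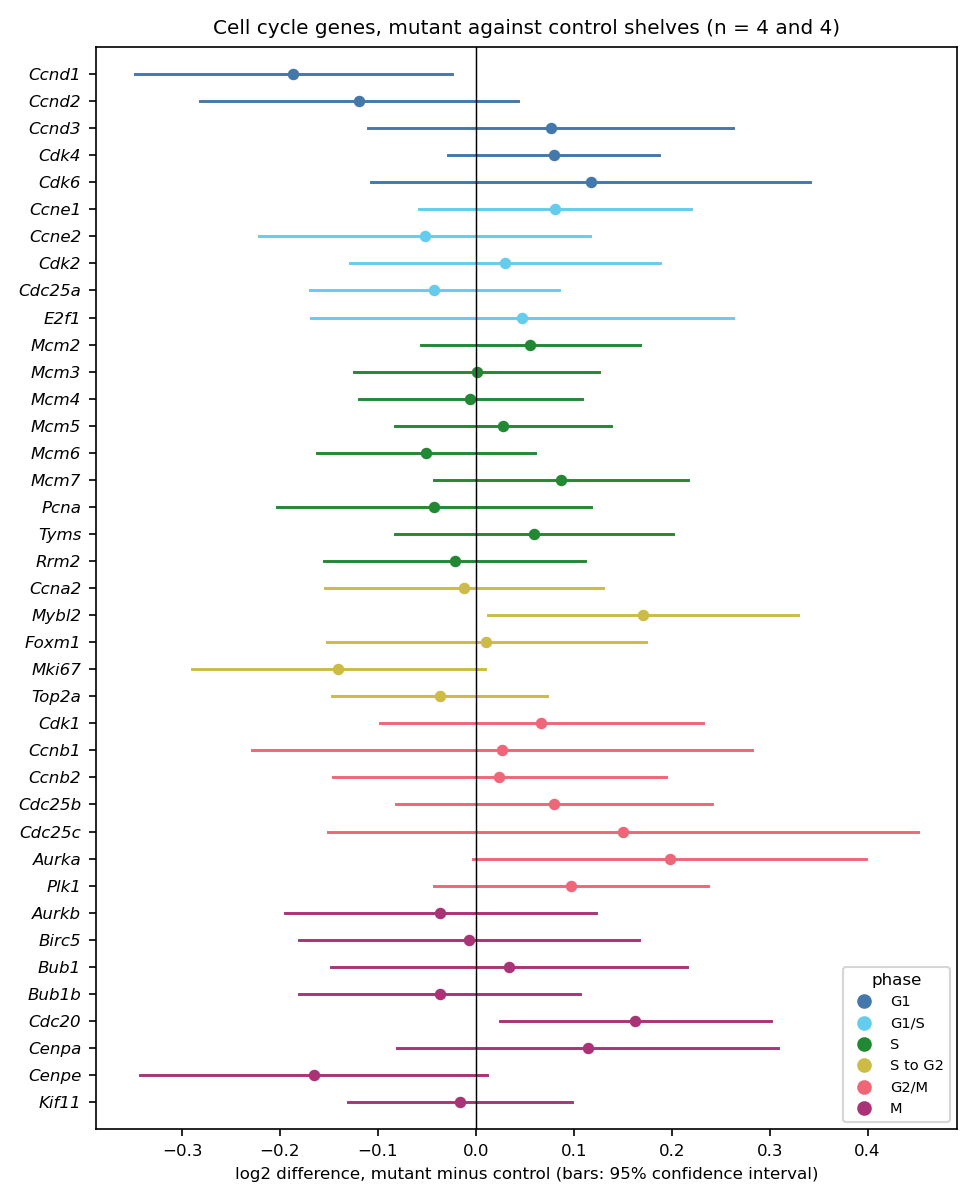
Log2 difference between mutant and control libraries (n = 4 and 4) for each of the 39 members, coloured by phase and ordered from G1 at the top to M at the bottom, with bars for the limma 95% confidence interval. Points lie on both sides of 0 within 0.2, and the intervals of Ccnd1, Mybl2 and Cdc20 do not cross 0 before adjustment over all genes.

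The D cyclins and their kinases receive growth signals in G1 and phosphorylate the retinoblastoma protein. Of these 5 genes, Ccnd1 and Ccnd2 had lower means in mutants and Ccnd3, Cdk4 and Cdk6 had higher means, with a median log2 difference of 0.077. That median ran from 0.015 (mutant replicate 3 left out) to 0.079 when each library was dropped in turn, and it was -0.035 with the first number in the library titles as a block. Ccnd1 (ENSMUSG00000070348, chromosome 7 from 144929931 to 144939925 in the GRCm38 annotation), the cyclin D1 gene, had 9716.4, 8964.3, 10670.9 and 9932.4 normalised counts in control replicates 1 to 4 and 8951.1, 7932.2, 8053.3 and 9627.1 in mutant replicates 1 to 4. Mutant replicates 1 to 3 lay below all controls, and mutant replicate 4 lay among them. The log2 difference was -0.19 (SE 0.0740, 95% interval -0.35 to -0.025), limma adjusted p = 0.754. Leaving out 1 library at a time gave -0.24 to -0.15. The titles of the libraries carry a first number whose meaning the labels do not give, and 2 of these numbers occur in both groups. Ccnd1 differed by -0.42 between the mutants (replicates 2 and 3) and the control (replicate 3) of title number 3602, and by 0.029 between the mutant (replicate 4) and controls (replicates 2 and 4) of title number 2057. Each of these contrasts has 1 library in one arm, control replicate 3 and mutant replicate 4, so they are values without a spread. On the other strand, the neighbouring gene Oraov1 covers 23.4% of the exon bases of Ccnd1, and without a stated strand setting their reads cannot be told apart there. Oraov1 itself had 829 ± 58.9 normalised counts in controls, against 742 ± 81.0 in mutants, differing by -0.16.

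Ccnd2, the cyclin D2 gene, had 26495.8, 26769.8, 32960.8 and 26589.7 normalised counts in controls, against 24401.0, 26503.5, 26421.5 and 26126.0 in mutants. Control replicate 3 stood far above every other library, and mutant replicates 1, 3 and 4 lay below all controls. Its log2 difference of -0.12 (95% interval -0.28 to 0.043) was -0.042 without control replicate 3. Ccnd3, the cyclin D3 gene, had 6215.3, 6073.8, 7384.8 and 6058.2 normalised counts in controls, against 6804.0, 6723.6, 7683.8 and 5939.3 in mutants. Here too control replicate 3 was the highest control, while the mutants reached both above and below the controls. The log2 difference of Ccnd3 was 0.077 (95% interval -0.11 to 0.26), which became 0.14 when control replicate 3 was left out and 0.015 when mutant replicate 3 was.

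Cdk4, the kinase partner of the D cyclins, had 16628.7 to 17734.5 normalised counts in controls, against 17652.4 to 18819.2 in mutants, with 3 mutants above all controls. Its log2 difference was 0.079 (95% interval -0.028 to 0.19). Tspan31 covers 19.7% of the exon bases of Cdk4 on the other strand. Cdk6, the second kinase of this step, had 2446.9, 2974.4, 3665.7 and 2928.4 normalised counts in controls, against 3036.9, 3404.4, 3375.9 and 3098.1 in mutants. All 4 mutant values of Cdk6 lay inside the span of the controls, whose highest library was again replicate 3. Its log2 difference was 0.12 (95% interval -0.11 to 0.34), and 0.22 without control replicate 3. Control replicate 3 was thus the highest control for Ccnd1, Ccnd2, Ccnd3 and Cdk6, while its Cdk4 value, 16628.7, was the lowest of all 8 libraries.

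**Figure D2:**
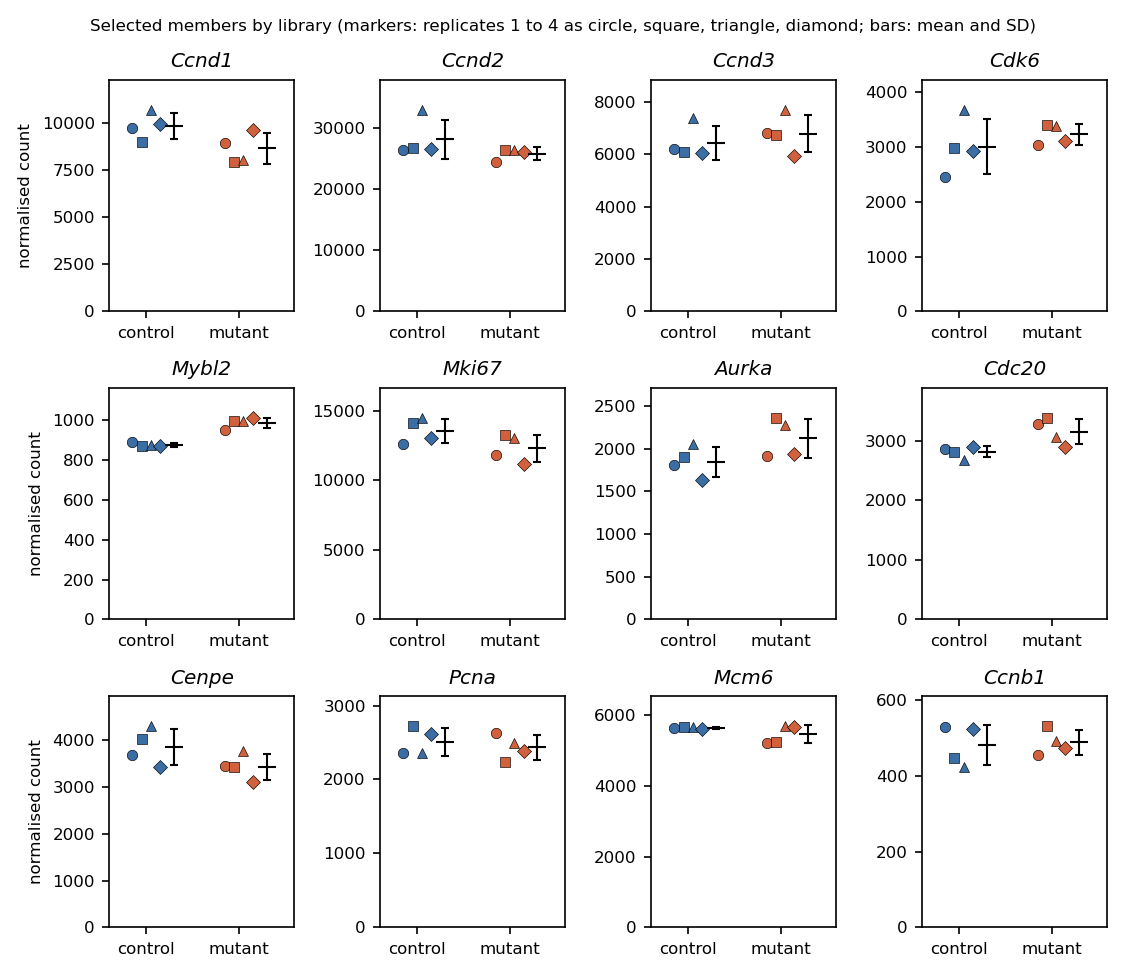
Normalised counts of 12 members in each library, controls in blue and mutants in orange, with bars for the mean and SD of each group (n = 4) and axes that start at 0. Control replicate 3 (triangle) is the highest control for Ccnd1, Ccnd2, Ccnd3 and Cdk6, and only Mybl2 of these 12 has mutant values, 948.1 to 1008.4, that all lie above the control values, 867.8 to 888.1.

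At the G1/S transition, cyclin E and CDK2 commit the cell to replication. Means of Ccne1, Cdk2 and E2f1 were higher in mutants and those of Ccne2 and Cdc25a lower, with a median log2 difference of 0.030 and adjusted p from 0.834 to 0.961 (limma). This median turned when 1 library was dropped, to -0.027 (control replicate 4), -0.0051 (mutant replicate 1) or -0.0074 (mutant replicate 3), and it was 0.092 without mutant replicate 4. With the title number as a block it was -0.064, with 1 gene higher and 4 lower. Ccne1, a cyclin E gene, had 1972.0, 2060.7, 1832.4 and 1876.7 normalised counts in controls, against 2036.3, 2157.9, 1993.3 and 1995.6 in mutants. Only mutant replicate 2 was above all controls, and the log2 difference was 0.081 (95% interval -0.059 to 0.22). Ccne2, the other cyclin E gene, had 934.9, 1047.4, 1050.6 and 1044.9 in controls and 1013.3, 937.9, 1010.2 and 969.0 in mutants, in normalised counts. Control replicate 1 was the lowest of all 8 libraries and the other controls were the 3 highest, so the groups overlapped through that 1 library. The difference of Ccne2 was -0.052, and -0.093 without control replicate 1. The exons of Ints8 cover 17.4% of the exon bases of Ccne2 on the other strand.

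E2f1, a transcription factor that switches on replication genes, had 1588.7, 1913.3, 1746.2 and 1419.0 normalised counts in controls, against 1652.1, 1744.3, 1917.1 and 1553.6 in mutants. The highest values of the groups, in control replicate 2 and mutant replicate 3, were almost equal. Its log2 difference was 0.047 (95% interval -0.17 to 0.26), and it was -0.027 without control replicate 4. Cdk2, the kinase bound by cyclin E, had 2634 ± 70.0 normalised counts in controls, against 2699 ± 256 in mutants, and mutant replicates spread on both sides of the controls. Cdc25a, the phosphatase that activates CDK2, had 2455 ± 32.7 and 2386 ± 122 normalised counts, a difference of -0.042. Mutants spread more than controls for both Cdk2 and Cdc25a.

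Of the 9 DNA replication genes, 5 had higher means in mutants and 4 lower, with a median log2 difference of 0.0007 and a range from -0.051 (Mcm6) to 0.087 (Mcm7). The median lay between -0.011 (without mutant replicate 3) and 0.026 (without mutant replicate 1) over the left-out libraries, and at 0.017 with the title number as a block. Mcm2 to Mcm7 encode the 6 subunits of the helicase that unwinds DNA at replication origins and forks. Mcm6 had 5632.9, 5670.6, 5671.5 and 5603.5 normalised counts in controls, a coefficient of variation of 0.581% that was the lowest of all members, and 5218.0, 5250.0, 5688.6 and 5659.1 in mutants. Mutant replicates 1 and 2 lay below the narrow band of controls, while mutant replicates 3 and 4 lay in it or just above it. The difference of Mcm6 was -0.051 (SE 0.0510, 95% interval -0.16 to 0.061). Mcm7 had 3275.4, 3395.2, 3298.4 and 3568.7 normalised counts in controls, against 3657.3, 3857.7, 3465.6 and 3410.6 in mutants. Only mutant replicates 1 and 2 were above all controls, and the difference was 0.087 (95% interval -0.042 to 0.22). Mcm7 shares 23.3% of its 50-base stretches with other genes, chiefly Gm5487, so part of its count could be split with them. Exons of other genes cover 3.89% of its exon bases on its own strand and 8.7% on the other, with the largest overlap from Ap4m1.

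The other helicase subunits differed by 0.056 or less. Mcm2 had 5783 ± 196 normalised counts in controls, against 6010 ± 212 in mutants, with mutant replicates 1 and 3 above all controls. Mcm3 had 5045 ± 231 and 5048 ± 252 normalised counts, a difference of 0.0007, the smallest of any member. Mcm4 stood at 6338 ± 114 and 6318 ± 315 normalised counts, and Mcm5 at 5688 ± 166 and 5798 ± 197. None of these 4 subunits had more than 2 mutant libraries outside the range of the controls on one side. The 95% intervals of all 6 subunits lay between -0.16 and 0.22.

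Pcna, the sliding clamp of the replication fork, had 2352.2, 2720.6, 2353.5 and 2616.2 normalised counts in controls, against 2632.3, 2240.3, 2494.1 and 2380.0 in mutants. The groups overlapped broadly, with mutant replicate 2 the lowest library and control replicate 2 the highest. Its difference was -0.043 (95% interval -0.20 to 0.12), and 19.1% of its 50-base stretches are shared with Pcna-ps2. Dropping control replicate 2 or mutant replicate 2 brought it to -0.0031, and dropping mutant replicate 1 to -0.081. Tyms, the enzyme that makes thymidylate for DNA synthesis, had 1775 ± 59.0 and 1851 ± 101 normalised counts, a difference of 0.059 with mutant replicates 2 and 4 above all controls. Rrm2, a subunit of the reductase that makes deoxyribonucleotides, had 3147 ± 171 and 3099 ± 142 normalised counts, a difference of -0.022. Both enzymes supply the bases that S phase consumes, and the libraries of the groups overlapped for both.

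The S to G2 group joins cyclin A, the transcription factors B-Myb and FoxM1, and the proliferation markers Ki-67 and topoisomerase II alpha. Mybl2 and Foxm1 had higher means in mutants and Ccna2, Mki67 and Top2a lower, with a median log2 difference of -0.012. It ranged from -0.042 without control replicate 1 to 0.023 without control replicate 3, and was -0.077 with the title number as a block. Mybl2 (ENSMUSG00000017861, chromosome 2 from 163054687 to 163084688), which encodes B-Myb, the MuvB partner that activates genes of G2 and M, had 888.1, 867.8, 874.1 and 871.1 normalised counts in controls, against 948.1, 991.9, 993.8 and 1008.4 in mutants. All 4 mutants lay above all 4 controls, and the controls spanned a narrow range. The log2 difference was 0.17 (SE 0.0726, 95% interval 0.012 to 0.33), limma adjusted p = 0.754. Leaving out 1 library at a time gave 0.16 to 0.19 for Mybl2, and the differences within title numbers 3602 and 2057 were 0.18 and 0.21. Of its 50-base stretches, 19.3% are shared with other genes, most with Gm3320.

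Mki67 (ENSMUSG00000031004, chromosome 7 from 135689784 to 135716361), the gene of the proliferation marker Ki-67, had 12593.6, 14113.6, 14467.0 and 13053.3 normalised counts in controls, against 11810.1, 13231.4, 13010.6 and 11189.8 in mutants. Mutant replicates 1 and 4 lay below all controls and the other 2 mutants among them. The log2 difference was -0.14 (SE 0.0685, 95% interval -0.29 to 0.0093), limma adjusted p = 0.767. Within title numbers 3602 and 2057 it was -0.14 and -0.28. Top2a, the topoisomerase that untangles sister chromatids, had 13003.5, 13195.0, 13590.8 and 12744.9 normalised counts in controls, against 13079.1, 13091.3, 13017.3 and 12039.4 in mutants. Mutant replicates 1 to 3 sat close together within the controls and mutant replicate 4 lay below every other library. The difference of Top2a was -0.037 (95% interval -0.15 to 0.073), and -0.0074 without mutant replicate 4.

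Ccna2, the cyclin A2 gene, had 5803 ± 469 normalised counts in controls, against 5743 ± 218 in mutants, and all mutant values lay inside the span of the controls. Its difference was -0.012, with 12.5% of its exon bases covered by Exosc9 on the other strand. Foxm1, a transcription factor of late-cycle genes, had 3478.8, 4253.2, 4060.7 and 3658.1 normalised counts in controls, against 4083.2, 4110.4, 3615.2 and 3732.3 in mutants. Mutant values of Foxm1 also stayed inside the span of the controls, and its difference was 0.011 (95% interval -0.15 to 0.17). B-Myb and FoxM1 bind many of the same late-cycle promoters, and here the means of their genes differed from controls by 0.17 and 0.011.

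For mitotic entry, all 7 members had higher means in mutants, by 0.024 (Ccnb2) to 0.20 (Aurka) and a median of 0.080 on the log2 scale. None passed the test, the 95% interval of each included 0, and the adjusted p ran from 0.754 to 0.978 (limma). When 1 library at a time was left out, 6 or 7 of the 7 kept a higher mean, and the median ran from 0.055 (without control replicate 4) to 0.11. All 7 were also higher with the title number as a block (median 0.11). Ccnb1 stood at -0.032 without control replicate 3 and Ccnb2 at -0.030 without control replicate 4. Aurka (ENSMUSG00000027496, chromosome 2 from 172356190 to 172370535), the kinase of centrosome maturation, had 1805.9, 1903.6, 2047.8 and 1628.2 normalised counts in controls, against 1917.6, 2354.8, 2271.2 and 1935.9 in mutants. Mutant replicates 2 and 3 were above all controls, and the other mutants lay among them. Its log2 difference of 0.20 was the largest of any member in size (SE 0.0919, 95% interval -0.0027 to 0.40), limma adjusted p = 0.754. Within title numbers 3602 and 2057 Aurka differed by 0.18 and 0.14.

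Plk1, the polo-like kinase that helps switch on CDK1, had 2847.3, 2652.3, 2782.4 and 2480.6 normalised counts in controls, against 2766.5, 3009.7, 2747.8 and 2979.8 in mutants. Mutant replicates 2 and 4 were above all controls, and the difference was 0.097 (95% interval -0.043 to 0.24). Cdk1, the kinase of mitosis itself, had 2465.0, 2794.8, 2484.9 and 2190.0 in controls and 2742.2, 2598.0, 2533.6 and 2501.3 in mutants, in normalised counts. Every mutant value of Cdk1 lay inside the span of the controls, whose lowest library was replicate 4. Its difference was 0.067, and 0.0083 without control replicate 4. Cdc25b, a phosphatase that removes the brake on CDK1, had 2286 ± 178 normalised counts in controls, against 2415 ± 157 in mutants, differing by 0.080.

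Ccnb1, the cyclin B1 gene, had 529.2, 447.1, 423.7 and 522.4 normalised counts in controls, against 455.1, 531.0, 493.0 and 473.4 in mutants. The groups overlapped almost completely, and the difference was 0.027 (95% interval -0.23 to 0.28). Ccnb1 shares 23.4% of its 50-base stretches with 6 genes, chiefly Ccnb1-ps, so its count is uncertain. Ccnb2, the cyclin B2 gene, has no such shared stretches and had 1969.9, 1927.0, 1787.2 and 1630.2 normalised counts in controls, against 1991.5, 1712.1, 1867.9 and 1855.0 in mutants. Control replicate 4 was its lowest library, and its difference was 0.024 (95% interval -0.15 to 0.19). Cdc25c, a further phosphatase of CDK1, had 548.4, 715.5, 672.0 and 469.4 normalised counts in controls, against 728.3, 588.7, 659.9 and 663.5 in mutants. Its controls spread more than those of any other member, with a coefficient of variation of 18.8%, and its difference was 0.15 (95% interval -0.15 to 0.45). Without control replicate 4 it was 0.038, without control replicate 2 it was 0.24, and with the title number as a block 0.043.

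Among the 8 genes of chromosome segregation, Bub1, Cdc20 and Cenpa had higher means in mutants and the other 5 lower, with a median log2 difference of -0.012. Without control replicate 2 the median was 0.032, with 6 genes higher and 2 lower. Dropping mutant replicate 3 gave 0.0061 and dropping control replicate 3 gave -0.028. With the title number as a block it was 0.031, with 5 higher and 3 lower. Cdc20 (ENSMUSG00000006398, chromosome 4 from 118432901 to 118437352), the activator of the anaphase-promoting complex, had 2851.6, 2810.4, 2681.8 and 2899.0 normalised counts in controls, against 3271.2, 3376.0, 3065.2 and 2890.8 in mutants. Mutant replicates 1 to 3 were above all controls, and mutant replicate 4 lay just under the highest control. The log2 difference was 0.16 (SE 0.0633, 95% interval 0.025 to 0.30), limma adjusted p = 0.754. Within title number 3602 Cdc20 differed by 0.26, and within title number 2057 by 0.018. Gm7856 and other genes share 10.6% of its 50-base stretches.

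Cenpe (ENSMUSG00000045328, chromosome 3 from 135212537 to 135273611), the kinesin that carries chromosomes to the spindle equator, had 3680.0, 4028.7, 4305.9 and 3438.1 normalised counts in controls, against 3457.9, 3423.3, 3777.3 and 3103.2 in mutants. Mutant replicates 2 and 4 lay below all controls, and the other mutants among them. The log2 difference was -0.17 (SE 0.0811, 95% interval -0.34 to 0.012), limma adjusted p = 0.767. It was -0.26 within both title numbers. Cenpa, the histone H3 variant of centromeres, had 2139.2, 2289.1, 2125.8 and 1851.1 normalised counts in controls, against 2361.0, 2574.3, 2018.4 and 2155.4 in mutants. Mutant replicates 1 and 2 were above all controls, and the difference was 0.11 (95% interval -0.080 to 0.31). It was 0.053 when mutant replicate 2 was dropped and 0.055 when control replicate 4 was, and dropping mutant replicate 3 gave 0.17.

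The remaining genes of M phase differed by less than 0.04 in either direction. Aurkb, the kinase of the chromosomal passenger complex, had 1909.2, 2149.6, 1740.0 and 1852.1 normalised counts in controls, against 1840.8, 1837.1, 1838.9 and 1923.8 in mutants. The mutants sat inside the span of the controls, and the difference was -0.036 (95% interval -0.19 to 0.12). Birc5, the gene of survivin in the same complex, had 2407 ± 177 and 2399 ± 223 normalised counts, a difference of -0.0069. Bub1 and Bub1b, kinases of the spindle checkpoint, stood at 1706 ± 196 and 1739 ± 58.7, and at 3964 ± 298 and 3859 ± 190 normalised counts, in controls and mutants. Kif11, the motor that pushes spindle poles apart, had 3646 ± 88.8 and 3606 ± 125 normalised counts, a difference of -0.016 (95% interval -0.13 to 0.098).

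The phases were also set side by side in each library, as the mean over the genes of a phase of log2(normalised count + 1), relative to the mean of the controls. Over all 39 members, the controls lay at -0.024, 0.045, 0.027 and -0.048 and the mutants at 0.024, 0.029, 0.040 and -0.0075. The mutants thus sat inside the span of the controls. For the S phase genes, the controls lay at -0.033, 0.025, 0.0059 and 0.0016 and the mutants at -0.0018, -0.0019, 0.041 and 0.012. For the G2/M genes, the controls lay at 0.043, 0.077, 0.010 and -0.13 and the mutants at 0.11, 0.085, 0.10 and 0.068. Control replicate 4 was far below the other libraries in G2/M, and mutant replicate 4 lay below the highest control. For the G1 genes, control replicate 3 stood at 0.16 and the other 7 libraries between -0.074 and 0.026. No phase separated the 4 mutants from the 4 controls.

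**Figure D3:**
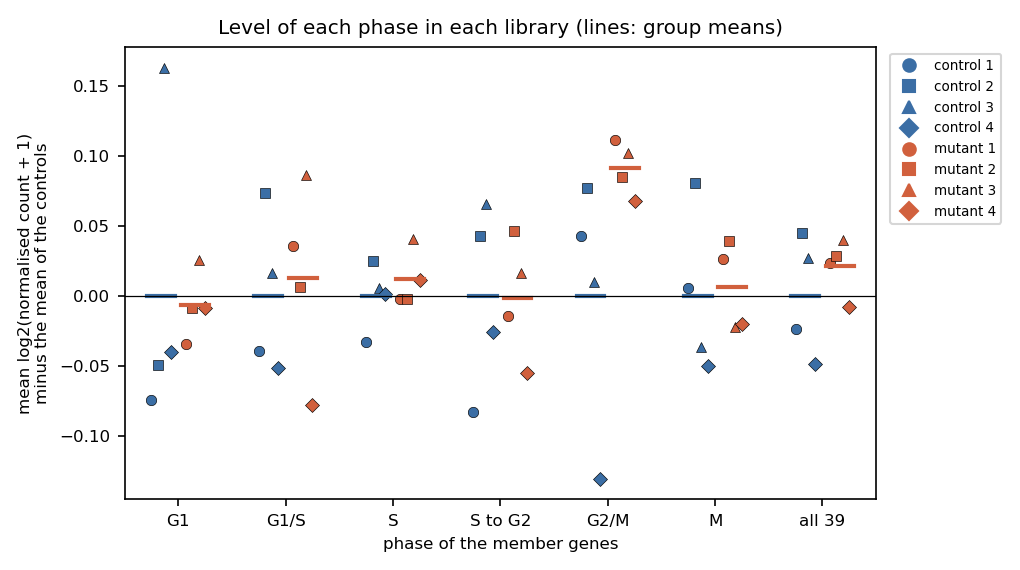
Mean level of each phase in each library, on the log2(normalised count + 1) scale relative to the mean of the controls, with 1 marker per library (controls blue, mutants orange) and lines for the group means (n = 4). Mutants and controls overlap in every phase, with control replicate 3 high in G1 and control replicate 4 low in G2/M.

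Levels between genes can be compared per kilobase (kb) of exon, here the union of annotated exons, which includes rare transcripts and can lower the value of a gene. Cdk4 was highest of the G1 genes, with 5272 ± 172 normalised counts per kb in controls, followed by Ccnd2 (2998 ± 337), Ccnd1 (2086 ± 149), Ccnd3 (733 ± 72.8) and Cdk6 (215 ± 35.9). No neighbours in this order overlapped within 1 SD. Of the D cyclin RNA per kb, Ccnd1 made up 35.9% ± 1.53 (SD, n = 4) in controls and 34.2% ± 2.80 in mutants, and Ccnd2 51.5% ± 1.37 and 51.3% ± 1.85. Ccnd3 made up 12.7%, 12.7%, 12.7% and 12.3% in controls and 12.3% to 16.2% in mutants, of which replicates 1 to 3 lay above all controls and replicate 4 did not. This share was looked at after its values were seen and was not tested.

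Of the helicase subunits, Mcm4 was highest per kb (1766 ± 31.9 in controls) and Mcm7 lowest (765 ± 30.1). Ccnb2 stood at 1194 ± 100 normalised counts per kb in controls and Ccnb1 at 114 ± 12.6, near Cdc25c at 122 ± 23.0. The exon model of Ccnb1 is 4217 bases long and that of Ccnb2 1531. Of the M phase genes, Cdc20 was highest (1505 ± 49.9) and Cenpa lowest (359 ± 31.1) per kb. The markers Top2a and Mki67, with 1457 ± 39.5 and 1347 ± 87.4 normalised counts per kb in controls, overlapped within their SDs. Together the 39 members held 0.602% of all normalised counts.

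**Figure D4:**
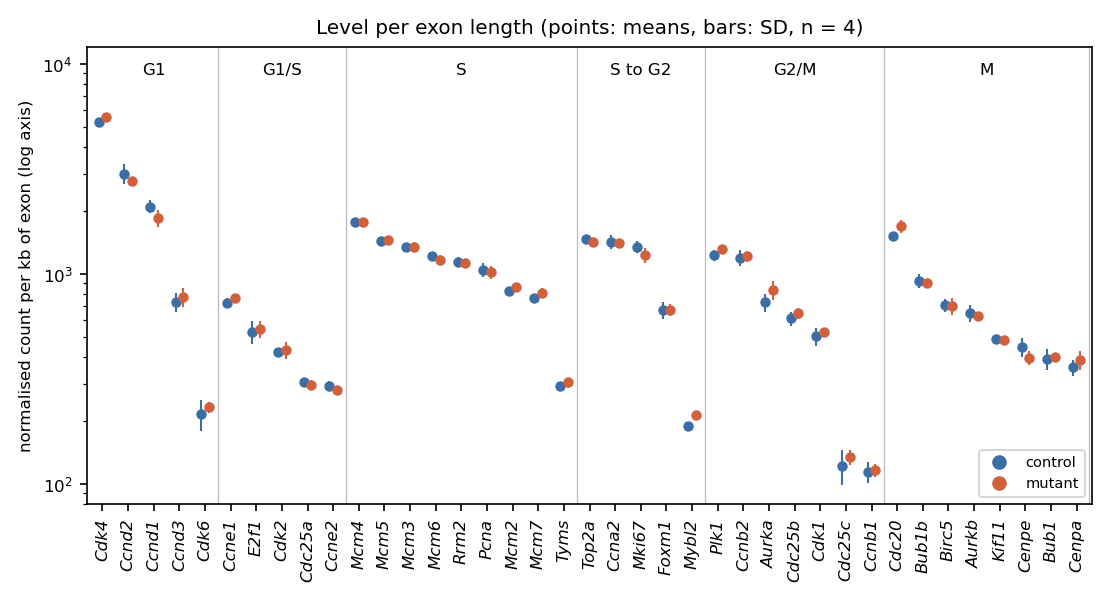
Normalised counts per kb of exon union on a log axis for the 39 members by phase, with means and SD bars (n = 4) for controls in blue and mutants in orange. Cdk4 is the highest (5272 in controls) and Ccnb1 the lowest (114), and the 2 groups lie close together for every gene.

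Another 125 genes of the cell cycle, in 8 lists by role, gave the same picture. None was called, 73 had higher and 52 lower means in mutants, the median log2 difference was 0.033, and 8 (6.40%) had an unadjusted limma p below 0.05, again near the 6.57% of all genes. The libraries of the groups did not overlap for 5 of the 125 (4%), against 3.77% of all genes. Of the 7 CDK inhibitors, 4 had higher and 3 lower means. Cdkn2b, the p15 inhibitor of CDK4 and CDK6, had 71.3, 78.1, 105.7 and 102.1 normalised counts in controls, against 127.4, 215.8, 119.6 and 174.0 in mutants. All its mutants lay above all controls, with a difference on the log2 scale of 0.81 (SE 0.258, limma adjusted p = 0.754), at a low level. Cdkn1c, the p57 inhibitor, had 59075 ± 2154 normalised counts in controls, against 52999 ± 4511 in mutants, differing by -0.16, with 1 mutant among the controls.

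Of the 17 pocket proteins, E2F partners and DREAM subunits, 14 had higher and 3 lower means, with differences from -0.11 to 0.17. E2f3, an activating E2F, stood at 1749 ± 156 normalised counts in controls, against 1937 ± 238 in mutants. Of the 17 genes of origin licensing and firing, 13 had higher and 4 lower means. Gins3, a subunit of the complex that joins the MCM helicase, had 569 ± 87.3 and 714 ± 47.7 normalised counts, 0.34 apart on the log2 scale (limma adjusted p = 0.754). Orc6, of the origin recognition complex, differed by 0.16. The 24 genes of the replication fork and nucleotide supply split into 12 higher and 12 lower. Dut and Tk1, enzymes of nucleotide supply like the member Tyms, differed by 0.17 and 0.16, and the libraries of Tk1 did not overlap.

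Of the 10 entry kinases and their brakes, 7 had higher means in mutants, as all 7 G2/M members did in the same libraries. The mean log2 level of this list, relative to controls, was also lowest in control replicate 4. It spanned -0.080 to 0.081 in controls and 0.011 to 0.11 in mutants, so the groups overlapped. Ccnf, the cyclin F gene, had 2218 ± 127 and 2458 ± 157 normalised counts, a difference of 0.15, and Wee1, the kinase that restrains CDK1, differed by 0.093. Of the 16 kinetochore and checkpoint genes, 6 had higher and 10 lower means. Incenp, the scaffold of the complex that holds Aurkb and Birc5, had 5513.6, 5562.3, 5281.6 and 5346.2 normalised counts in controls, against 4945.7, 4967.0, 4933.1 and 4708.4 in mutants. All its mutants lay below all controls, at -0.15 on the log2 scale (SE 0.0487, limma adjusted p = 0.754). Spc25, of the outer kinetochore, differed by -0.24, and Cenpf, a large kinetochore protein, by -0.17, close to the member Cenpe. The 20 spindle and cytokinesis genes split into 9 higher and 11 lower, with Kif22, a chromosome-arm motor, at 0.16 without overlap and Kif14 at -0.18. The 14 genes of the APC/C, SCF and separase split into 8 higher and 6 lower, between -0.11 and 0.14.

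**Figure D5:**
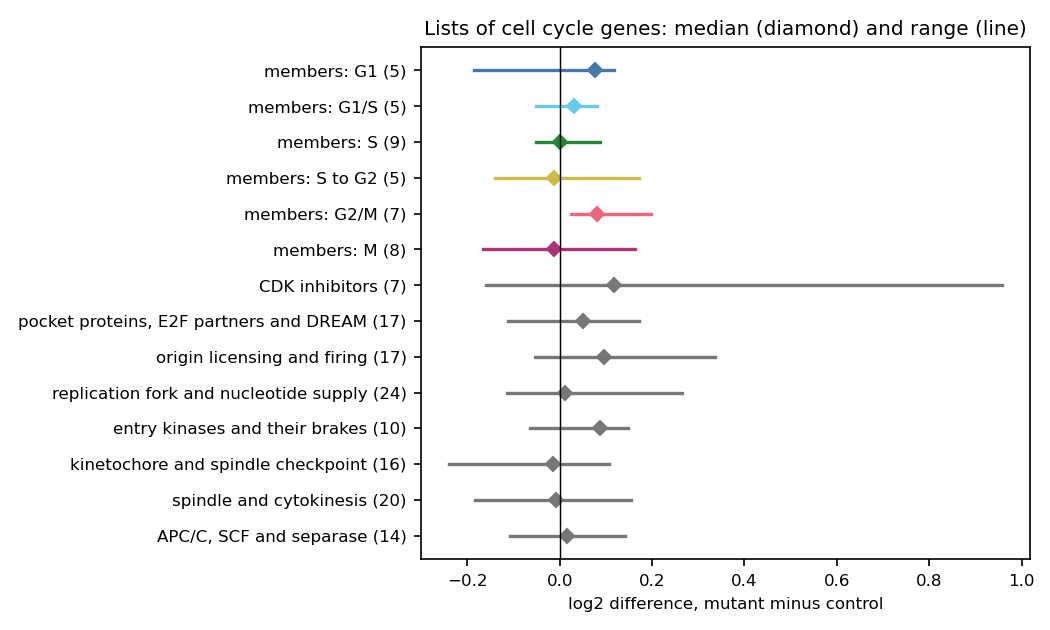
Median (diamond) and range (line) of the log2 difference between mutants and controls for the 6 phases of members, in colour, and the 8 other lists of cell cycle genes, in grey, with the number of genes in brackets. All medians lie between -0.014 and 0.12, and the long line of the CDK inhibitors ends at Cdkn2a, which had 15.9 normalised counts in mutants.

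Markers of several cell types that the dissection could hold differed by more than the cell cycle genes, and their part in the members' differences was not tested. All 5 endothelial markers had lower means in mutants, with summed levels of 13723 to 15173 normalised counts in controls, against 10174 to 13310 in mutants. All 8 epithelial markers had higher means, with sums of 21341 to 29597 and 23488 to 41546. Their mean log2 level, relative to controls, was 0.73 in mutant replicate 2. The other mutants (-0.026 to 0.27) lay within the controls (-0.29 to 0.28). The 5 tested osteoblast markers had lower means, with sums of 21397 to 39876 and 5899 to 20155. Of 4 chondrocyte markers 3 had lower means on the log2 scale, with sums of 16681 to 27270 and 8607 to 20717. The other, Matn1, was at 0 in control replicate 3. Its log2 difference was 0.0068 (SE 1.37), while its mean normalised count was 73.8 in controls and 41.3 in mutants. All 6 erythroid markers had higher means, with sums of 19095 to 23316 and 15738 to 41689. Sums of the 8 palatal mesenchyme markers were 76719 to 86655 in controls and 73105 to 90365 in mutants. Of the other lists, Schwann cell markers had higher means for 4 of 4, with sums of 2633 to 3098 and 2794 to 5152, and macrophage markers for 3 of 3, with sums of 1136 to 1621 and 1418 to 1792. Skeletal muscle markers summed to 13920 to 16862 in controls and 7821 to 28348 in mutants, and neuron markers to 1354 to 2669 and 1892 to 4672. On the same log2 scale, mutant replicate 2 was also highest for erythroid (0.98) and neuron markers (1.26). It was lowest for osteoblast (-1.91) and endothelial markers (-0.47). For endothelial markers all mutants (-0.47 to -0.11) lay below all controls (-0.049 to 0.090). Schwann cell markers were highest in mutant replicate 1 (1.30). None of the genes in these 10 lists passed the limma test over all genes.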

How the data were processed

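Sequenced RNA of E14.5 posterior palatal shelves made up 4 control and 4 mutant libraries, numbered within each group in the order of the records. STAR 2.7.2 and DESeq2 (no version) are named in the submitters' processing notes, while annotation, build, strand setting and counting tool were not given in the sources used here. Positions of genes in the deposited table equal those of the GENCODE M21 annotation of GRCm38 for 95.2% of the IDs found in both (49909 of 52403).

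The signal values are normalised counts made by the authors, which were found to be whole reads divided by 1 size factor per library (0.939 to 1.06). All values between 50 and 5000 gave whole reads within 0.06, where rounding alone gives 12.0%. The factor of mutant replicate 4 is 0.989, so whole reads there rest on that range alone. The deposited log2 values are the authors' variance-stabilised values and served in 1 alternative. A count of 0 in a library allows up to 3 reads, counting error only.

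Mutants and controls were compared with limma 3.58.1 (R 4.3.3) fitted to log2(normalised count + 1) by genotype alone, with a trend of variance on intensity, two-sided, over 16647 genes, with Benjamini-Hochberg adjustment over all of them at 0.05. Script steps were tested on simulated data. Alternatives tried were a pseudocount of 0.5 or 8, filters at a mean of 50 or absent, scaling by upper quartile or by trimmed mean of M-values, the stabilised values, edgeR 4.0.16 and DESeq2 1.42.0 on recovered reads, the title number as a block, and leaving out each library. Shared 50-base stretches and exon overlaps came from the GENCODE transcripts, and promoter windows from RefSeq (GRCm38.p6). The 8 members without a RefSeq window were left out of the promoter counts.

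All 39 members could be named, with up to 4 genes of the smallest p from each pathway list, Yap1, Wwtr1 and Col2a1 as checks of the labels, and up to 2 from each cell type list. Oraov1, Gm42418, Matn1, Hist1h1e and Hist1h2af fall outside this rule, chosen after seeing their values. The members and all gene lists were chosen with earlier results of these data known. Python 3.11.15 with scipy 1.17.1, pandas 2.3.3, numpy 2.4.6 and matplotlib 3.10.9 served for tables and figures.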

Additional observations from a re-analysis of the deposited data

Results flagged for a closer look

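In 5 of the 78 sets of 4 libraries (39 members in each of 2 groups), 1 library stood apart from the other 3 by most of the whole range (Dixon's 95% criterion), where chance alone gives about 1 in 20, or 3.9. Ccnd2 had 32960.8 normalised counts in control replicate 3, and the other controls had 26495.8 to 26769.8. Ccnd3 had 7384.8 in the same library, and the other controls had 6058.2 to 6215.3. Ccne2 had 934.9 in control replicate 1, below the 1044.9 to 1050.6 of the other controls. Top2a had 12039.4 in mutant replicate 4, below the 13017.3 to 13091.3 of the other mutants. Aurkb had 1923.8 in mutant replicate 4, above the 1837.1 to 1840.8 of the other mutants.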

How the results depend on the processing

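No member was called under any of the 18 alternatives, whose smallest adjusted p of a member ranged from 0.602 (DESeq2) to 0.976 (without mutant replicate 2). The members' median ranged from 0.0083 (without control replicate 4) to 0.043 (without control replicate 2), and 13 to 19 members had lower means. Of all genes, limma called 4, DESeq2 28, and leaving out 1 library gave 0 (without control replicate 2, control replicate 4 or mutant replicate 3) to 11 (without control replicate 3), with 8 without mutant replicate 4. The cause was not tested. With 4 libraries a group, the 95% intervals given above bound each difference gene by gene, before adjustment. They do not give the size that the adjusted test would have called. The histone gene Hist1h1e, for one, was not called at -1.07 (limma adjusted p = 0.267). It had a lower level (202 normalised counts in controls) and a larger SE (0.195) than is typical of the members. Their lowest mean was 484 normalised counts and their median SE 0.0726. Hist1h1e therefore does not show what size would be called for a member. Of the members, 23 kept their sign throughout. No paired analysis was possible because the labels give no replicate numbers, and only the title number, which 6 of 8 libraries share across groups, could serve as a block. Under that block, 9 members changed sign, to -0.077 for Foxm1, 0.049 for Birc5, 0.013 for Aurkb, 0.029 for Mcm4, -0.066 for Cdk2, -0.0091 for E2f1, -0.035 for Ccnd3, -0.021 for Cdk6 and -0.032 for Mcm3, and the medians of the G1, G1/S and M genes turned to -0.035, -0.064 and 0.031. Leaving out 1 library, 14 members changed sign, with ranges of -0.080 to 0.021 for Aurkb, -0.062 to 0.046 for Birc5, -0.012 to 0.099 for Bub1, -0.073 to 0.011 for Bub1b, -0.069 to 0.023 for Ccna2, -0.032 to 0.075 for Ccnb1, -0.030 to 0.062 for Ccnb2, -0.0068 to 0.092 for Cdk2, -0.027 to 0.12 for E2f1, -0.038 to 0.059 for Foxm1, -0.032 to 0.0058 for Kif11, -0.030 to 0.030 for Mcm3, -0.033 to 0.026 for Mcm4 and -0.051 to 0.0072 for Rrm2.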

Other observations

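The replication-dependent histone genes are transcribed in S phase like the 9 replication members, but most of their messages lack a poly(A) tail. They were added after earlier results were seen. Of 44 tested, 40 (90.9%, against 50% of all genes) had a lower mean in the mutants (median log2 difference -0.80), while the 9 replication members had a median of 0.0007. The 44 genes together held only 2460 to 3093 normalised counts in controls and 1715 to 2132 in mutants. Of them, 7 were at 0 in some library. None of the 44 passed the limma test over all genes. An unadjusted p below 0.05 was given for 15 (34.1%), against 6.57% of all genes, and the libraries of the groups did not overlap for 9 (20.5%), against 3.77%. The filter of 10 normalised counts in 4 libraries can be met by the controls alone. Hist1h2af met it in this way, with 16.4 to 49.1 normalised counts in controls and 0.0 to 9.6 in mutants. Genes that enter so are lower in mutants by selection, so these counts and the median lean towards lower values and are description only. Hist1h1e, a linker histone gene, had 189.5, 234.3, 177.5 and 208.2 normalised counts in controls and 87.5, 104.1, 104.2 and 87.0 in mutants. All its mutants lay well below all controls, at -1.07 on the log2 scale (SE 0.195), with a limma adjusted p of 0.267. The share of reads of Gm42418, from the ribosomal RNA locus, was also lower in every mutant library (1.56% to 2.49%) than in every control (4.22% to 5.66%), and its part in the histone difference was not tested.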
